A study of Mus musculus with 12 samples.

Results

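Igfbp5 encodes insulin-like growth factor-binding protein 5 and is 1 of the 584 genes in the deposited table of hippocampal genes that differed between mice from standard cages (SH) and mice from an enriched environment (EE). It was taken as the row of that name, and since the table itself was selected on the difference between SH and EE, the values of Igfbp5 in this comparison are a description and no test of it is given. Of the 584 genes, 338 had a lower and 246 a higher mean in EE, and Igfbp5 was among the lower ones. Total RNA of the hippocampus was sequenced in 6 libraries, 3 a group, from male wild-type C57BL/6 animals labelled as untreated, which were weaned at 3 weeks of age and sampled at 8 weeks, after 5 weeks of housing. EE cages held toys, tunnels and hideouts that were changed weekly and also more animals than SH cages, so objects and company cannot be told apart. The study also made 6 libraries from RNA bound by an antibody against m6A, a methyl mark on adenosine, which are not analysed here.

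Insulin-like growth factors (IGF1 and IGF2) are secreted proteins that promote growth, survival and differentiation through the IGF1 receptor, a tyrosine kinase of the cell surface. Binding proteins such as IGFBP5 hold the ligands in the extracellular space and thereby set how much ligand reaches the receptor. They can restrain or prolong the signal, depending on the tissue and on proteases such as PAPP-A2 that cleave them. IGFBP5 also attaches to the extracellular matrix. In the hippocampus, IGF1 is known for its effects on the formation of new neurons in the dentate gyrus.

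Igfbp5 lies on the minus strand of chromosome 1 of GRCm38 (chr1:72858065-72874865), the build called mm10, and has 4 exons in RefSeq. The exons add up to 5854 bases, of which 726 are 5′ untranslated, 816 code for 271 residues and 4312 (73.7%) are 3′ untranslated. This is also the length behind the FPKM of all 6 libraries, where FPKM is the read count scaled to exon length and to the read total of the library. Most of the RNA that could give reads is thus the last exon, of 4444 bases. No other gene annotated in RefSeq overlaps Igfbp5 (0 genes). Igfbp2, which encodes another IGF-binding protein, is the nearest annotated gene, on the other strand and 5590 bases beyond the end of Igfbp5, and it is not in the table.

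**Figure D1:**
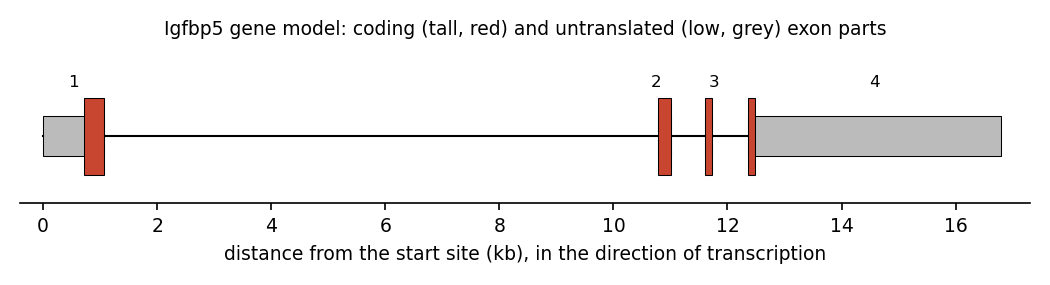
Gene model of Igfbp5 from RefSeq, with the distance from the start site in kilobases on the x axis, coding parts of exons as tall red boxes and untranslated parts as low grey boxes. The 4 exons are unequal, and the 3′ untranslated part of exon 4 makes up 4312 of the 5854 exonic bases.

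The 100 bases before the start site are shown because they lie just before the start of the only RefSeq transcript of Igfbp5 (RefSeq, GRCm38.p6, chr1:72874866-72874965, minus strand, written 5′ to 3′). The capitals mark TATTTAAA, an A- and T-rich element of the kind that TATA-binding protein can recognise, which begins 51 bases before the start site and was picked after reading the sequence.

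Igfbp5 promoter: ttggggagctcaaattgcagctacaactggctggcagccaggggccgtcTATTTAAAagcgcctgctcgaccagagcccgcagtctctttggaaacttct

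TATTTAAA was found on either strand in 1.81% of 32851 promoter windows of 300 bases around start sites. The common TATA-box letters TATAAA (13.6% of promoters) and the CCAAT box (37.4%) were not found in the window of Igfbp5. These matches describe the sequence only, and no measurement in this data set was made on the promoter.

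With the read totals as library sizes, Igfbp5 was lower in every EE library than in any SH library, and with DESeq2 size factors the groups overlapped. Its FPKM was 40.4, 36.8 and 39.2 in SH replicates 1, 2 and 3. In EE replicates 1, 2 and 3 it was 32.2, 33.1 and 33.1. On this scale the groups were apart, and the EE libraries lay between 83.1% and 85.4% of the SH mean. SH libraries averaged 38.8 ± 1.82 FPKM (SD, n = 3) and EE libraries 32.8 ± 0.50 (SD, n = 3), a difference of -15.4%. In the whole table, every EE library was below every SH library in 53.8% of the genes, which is 314 of the 338 lower ones, so this property is common among genes selected in this way. In bulk tissue, fewer cells that express Igfbp5 and less Igfbp5 RNA per cell cannot be told apart.

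**Figure D2:**
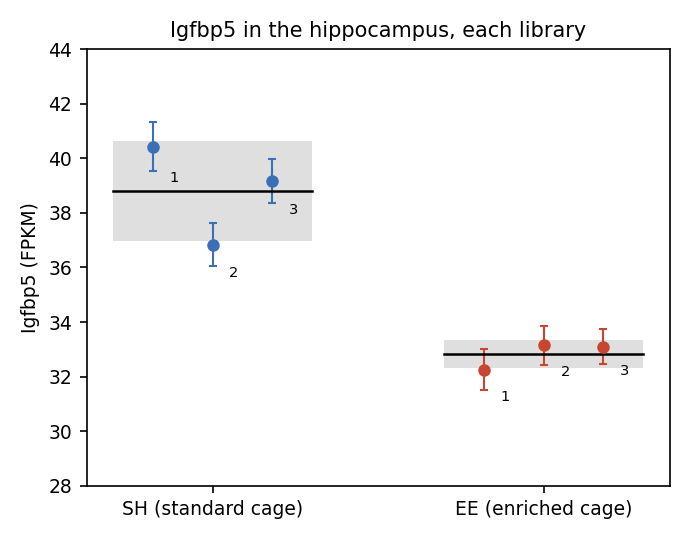
Igfbp5 FPKM in each library (y axis, starting at 28) for SH (blue) and EE (red), with replicate numbers, 95% counting intervals as bars, and group mean ± SD (n = 3) as black line and grey band. The 3 EE libraries sit between 32.2 and 33.1, all below the SH libraries at 36.8 to 40.4 on this scale.

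The raw read counts do not show this order before depth is taken into account. They were 7566, 8319 and 9243 reads in SH and 7080, 8218 and 10449 in EE, so that EE replicate 3 had the most Igfbp5 reads of the 6 libraries. It was also the deepest library, with 53943195 reads behind its FPKM. Totals ran from 31969156 to 40319498 reads in SH and from 37507694 to 53943195 in EE. In RPM, which scales the count to the read total of the library, the SH libraries averaged 227.2 ± 10.7 (SD, n = 3) and the EE libraries 192.2 ± 2.94 (SD, n = 3).

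At these depths the counting error was small against the difference. A count of this size has a relative error of 0.98% to 1.19%, compared to a coefficient of variation between replicates of 4.70% in SH and 1.53% in EE. The 95% Poisson interval of the highest EE library reached up to 33.9 FPKM and that of the lowest SH library down to 36.04 FPKM. These intervals cover counting error only. The spread between SH libraries exceeded counting error more than that between EE libraries did. The study describes 3 biological repeats a group, but the labels do not say whether a library is 1 animal, so the spread is that between these libraries.

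On the log2 scale, the lowest SH library was 0.15 above the highest EE library. The libraries of SH spanned 0.13 and those of EE 0.04, so the gap exceeded the range within either group, which held for 75 genes, 12.8% of the 584 and 22.2% of the 338 that were lower in EE. The 9 pairs of an EE and an SH library differed by -0.33 to -0.15. SH replicate 2 set the lower edge of the SH group, and without it the gap was 0.24. The gap depended on the scaling. With TMM factors estimated from the selected genes it was 0.030, against a range of 0.15 in SH, and with DESeq2 size factors it was -0.022, so that SH replicate 2 lay below the highest EE library. Instead of 75 genes, 37 had a gap above both ranges with TMM factors and 23 with DESeq2 size factors, and Igfbp5 was not among them. These scalings of the gap and of this count were added after the data were seen. Separation of the groups, here and for the genes below, is stated for read totals unless another scaling is named.

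The fitted log2 fold change of Igfbp5 was -0.24 (standard error 0.05) in edgeR, with the read totals as library sizes. With each library left out in turn it stayed between -0.28 (without SH replicate 2) and -0.21 (without SH replicate 1). Size factors estimated by DESeq2 from the 584 selected genes alone gave -0.13. These factors moved the median log2 fold change of the whole table by 0.11.

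**Figure D3:**
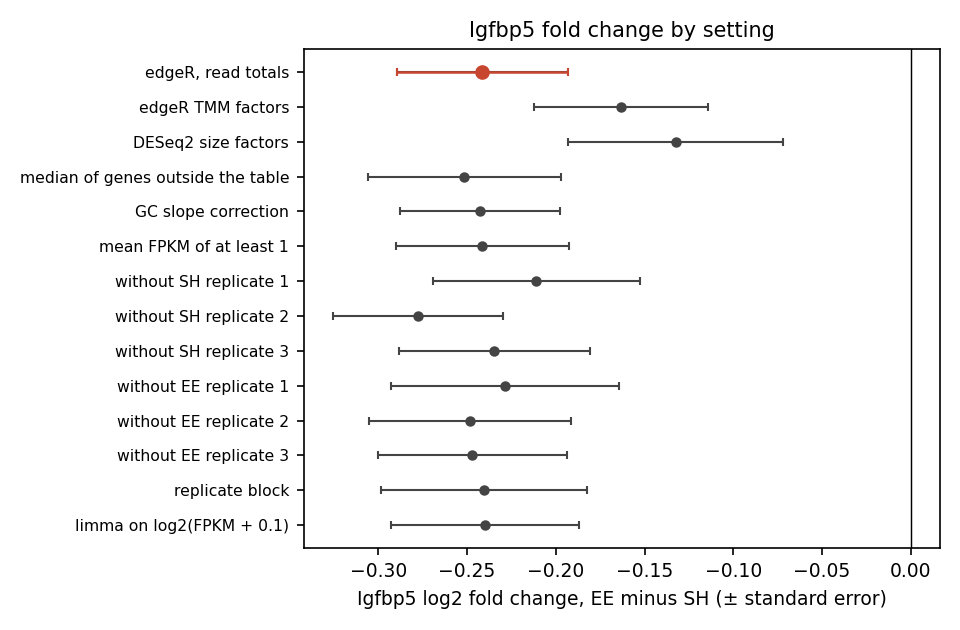
Igfbp5 log2 fold change of EE minus SH (x axis) ± standard error under each setting (y axis), with the edgeR value from read totals in red. All 14 values are below 0, from -0.28 without SH replicate 2 to -0.13 with DESeq2 size factors.

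Among the 338 genes lower in EE, Igfbp5 ranked higher by its level than by its fold change. By log2 fold change it was 147th, close to the median of -0.23. By FPKM in SH it was 68th, above a median of 14.8 FPKM, and by the difference in FPKM it was 51st, at -5.98 FPKM. By the difference in RPM, which is not scaled to length, it was 22nd, at -35.02 RPM, with exons of 5854 bases against a median of 4142. The range of its EE libraries was the 16th smallest and that of its SH libraries the 172nd smallest, near the middle. The gap between groups was the 60th largest.

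**Figure D4:**
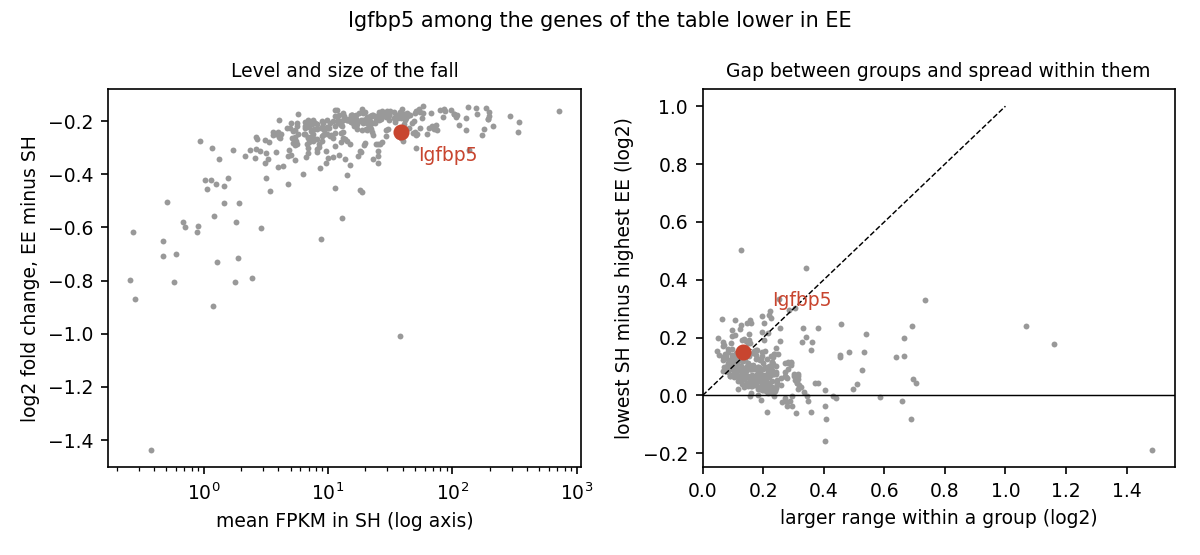
The 338 genes lower in EE (grey points, Igfbp5 in red): left, log2 fold change of EE minus SH against mean FPKM in SH (log axis), and right, lowest SH minus highest EE library against the larger range within a group, both in log2 units, with a dashed line where they are equal. Igfbp5 lies at 38.8 FPKM and -0.24 on the left, and just above the dashed line on the right, at a gap of 0.15 and a range of 0.13.

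Few genes as abundant as Igfbp5 had a larger fold change. Of the 68 lower genes with an SH level at or above that of Igfbp5, itself included, 9 were further below SH on the log2 scale. Among these, and named after their values were seen, were Uqcr11, a subunit of mitochondrial respiratory complex III (-0.31, from 136.0 to 109.6 FPKM), and Cabp1, a neuronal calcium-binding protein (-0.27, from 39.9 to 33.0 FPKM). Calr, the calcium-binding chaperone calreticulin of the endoplasmic reticulum, came directly before Igfbp5 in the order of log2 fold changes. Calr was at 337.0 ± 33.6 FPKM in SH and 285.1 ± 31.7 in EE (SD, n = 3), and its groups overlapped. Next after Igfbp5 came Hdac4, a histone deacetylase, at 3.63 ± 0.07 and 3.07 ± 0.07 FPKM, whose groups did not overlap. Calr, Igfbp5 and Hdac4 had the same log2 fold change to 2 decimals (-0.24), with standard errors of 0.09, 0.05 and 0.06, so their order is not resolved. Miat and Lmtk3 (larger falls) and Mbd6 and Ndufb11 (smaller falls) were also at -0.24, and the groups overlapped in Miat and Lmtk3.

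Of the other genes of the IGF system, only a few were in the table. Of 79 genes of IGF ligands, receptors, binding proteins, their proteases and receptor signalling, 4 were among the 584, Igfbp5 included. None of the 3 ligand genes was among them. Of the 4 receptor genes, Igf1r was in the table, and of the 9 binding protein genes, Igfbp5 alone. The 17 proteases and protease inhibitors had none, and of 46 signalling genes Sos1 and Rheb were present. Genes outside the table are not analysed here, so nothing is said of their level.

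Igf1r encodes the IGF1 receptor, through which the ligands held by IGFBP5 act. Its FPKM was 4.86, 4.58 and 4.75 in SH and 4.12, 4.10 and 3.90 in EE. As in Igfbp5, the groups did not overlap with read totals but did with DESeq2 size factors (gap -0.016), and the lowest SH library was replicate 2. It averaged 4.73 ± 0.14 and 4.04 ± 0.12 FPKM (SD, n = 3), a log2 fold change of -0.23 (standard error 0.05).

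The 2 signalling genes were higher in EE. Sos1, an exchange factor that activates Ras downstream of receptor tyrosine kinases, had 7.72, 7.86 and 7.42 FPKM in SH and 8.90, 8.67 and 8.38 in EE. The fitted value was 0.17 on the log2 scale (standard error 0.05). Rheb, a small GTPase that activates mTOR complex 1, had 67.6, 66.9 and 74.3 FPKM in SH and 78.7, 83.2 and 74.5 in EE. The fitted value was 0.18 (standard error 0.06), and its lowest EE library was just above its highest SH library. Rheb and Sos1 thus lay opposite to Igfbp5 and Igf1r. Their groups stayed apart with TMM factors and DESeq2 size factors too, but this does not show stability. These factors moved the median log2 fold change of the table up, by 0.08 and 0.11, which tends to widen such a gap. Scaling to 308 genes outside the table moved it by -0.01, and separation under that scaling is not given here. The gap of Rheb was narrow and may not hold there. At an unadjusted p under 0.01 in edgeR, 40.6% of the table was called lower and 19.2% called higher, and Igf1r was among the lower calls and Sos1 among the higher ones, while Rheb did not pass. Nothing is read from these shares, as the table was selected on this contrast. With TMM factors from the selected genes, the same rule called 53 genes lower and 229 higher. All EE libraries exceeded all SH libraries in 37.2% of the genes. The directions of these 4 genes were the same with TMM factors, DESeq2 size factors, scaling to 308 genes outside the table and a GC correction. Their sizes were not. With the GC correction the log2 fold change was 0.11 in Sos1 and 0.12 in Rheb. With DESeq2 size factors it was 0.28 in Sos1, 0.29 in Rheb, -0.12 in Igf1r and -0.13 in Igfbp5.

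Igf1r was also among the genes whose pattern over the 6 libraries was nearest to that of Igfbp5. Likeness was measured as the root mean square difference of log2(FPKM + 0.1), each gene centred on its own mean. It was 0.0376 for Igf1r, the smallest value, against a median of 0.0869 for the genes lower in EE. Aldh1l1 (0.0389) and Mllt6 (0.0393) were so close to it that their order is not resolved. The other near genes, in order, were Aldh1l1, a folate enzyme used as an astrocyte marker, Mllt6, a chromatin protein, Hdac4, Fbxo2, an F-box protein that binds glycoproteins, Palm, the membrane protein paralemmin, Kcnc4, a voltage-gated potassium channel subunit, and Nde1, a partner of dynein in neuronal migration. The difference was 0.05 for the last of these 8 genes. Because the genes of the table were selected on the same 6 libraries, a shared direction is built into this order, and with a pseudocount of 1 only Aldh1l1 and Mllt6, 2 of the 8 genes, were among the nearest 8, and Igf1r was 10th.

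**Figure D5:**
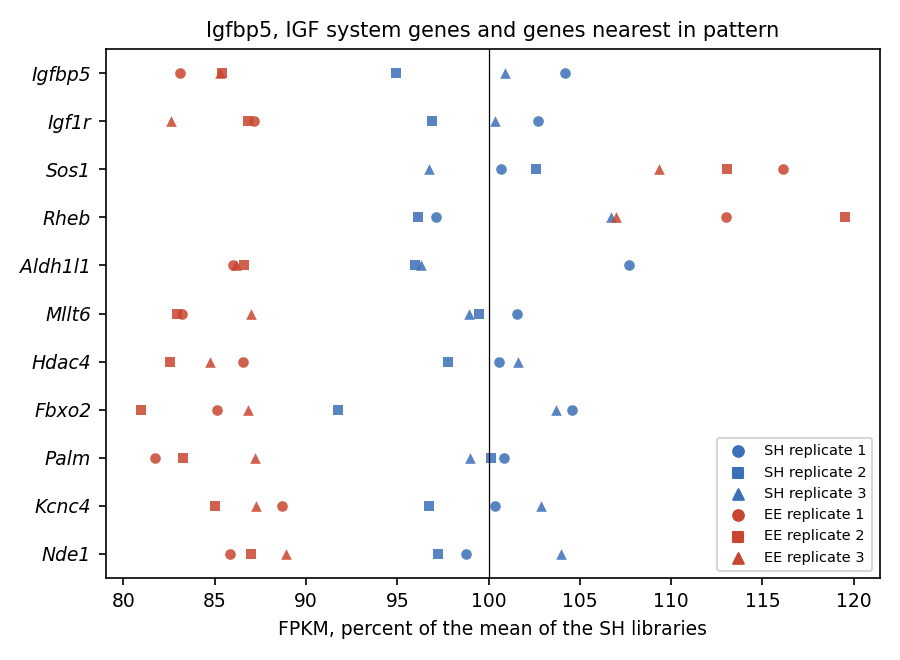
FPKM of Igfbp5, the other IGF system genes and the genes nearest in pattern (y axis), as percent of each gene's SH mean (x axis), with SH in blue, EE in red and a marker shape per replicate. On this scale Igfbp5 and Igf1r have all EE libraries below all SH libraries, which is lost with DESeq2 size factors, and Sos1 and Rheb have them all above.

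IGFBP5 binds to the extracellular matrix, and 5 of 36 genes for matrix proteins and proteoglycans were in the table, 4 lower and 1 higher in EE. The median log2 fold change of the 5 genes was -0.30, against -0.18 over the 584 genes, and 2 of the 5 were called lower, a share near the 40.6% of the whole table. Adamts2, a protease that trims procollagen, had 1.03 ± 0.03 FPKM in SH and 0.77 ± 0.05 in EE (SD, n = 3). Thbs4, a thrombospondin of the matrix, had 8.21 ± 0.65 and 6.65 ± 0.52. The groups did not overlap in Adamts2 and Thbs4, but those of Thbs4 did with TMM factors and DESeq2 size factors. The collagen genes Col4a2 (6.50 ± 0.79 and 5.46 ± 0.54) and Col6a1 (6.70 ± 0.74 and 5.30 ± 0.75) did overlap between groups. Vcan, the proteoglycan versican, was higher, at 1.81 ± 0.17 and 2.07 ± 0.06 FPKM.

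Of markers of hippocampal and neighbouring cell types, 7 of 94 genes were in the table, 5 lower and 2 higher in EE. Astrocyte markers had 2 of 9 genes there, Aldh1l1 and the gap junction gene Gja1, both lower, with a summed level of 101.4 to 104.0 FPKM in SH and 91.2 to 92.4 in EE. With DESeq2 size factors the groups overlapped in both genes. The log2 fold change was then -0.10 in Aldh1l1 and -0.04 in Gja1, against -0.21 and -0.15 with read totals. Of 8 dentate granule neuron markers, C1ql2 (18.6 to 28.4 FPKM over the libraries, groups overlapping) and Trpc6 (3.29 to 4.62, overlapping only with TMM factors and DESeq2 size factors) were present and lower. These 2 genes summed to 25.8 to 32.5 FPKM in SH and 21.9 to 28.3 in EE. Of 8 endothelial markers, Cldn5 was lower (4.77 ± 0.19 and 3.52 ± 0.28) and Slco1a4 higher (3.04 ± 0.43 and 3.69 ± 0.05), with sums of 7.36 to 8.22 FPKM in SH and 6.86 to 7.45 in EE. The microglial receptor gene P2ry12, 1 of 9 microglia markers, was higher (20.4 ± 1.60 and 24.1 ± 0.64). None of the listed markers of pyramidal neurons, interneurons, oligodendrocytes and their precursors, mural cells and fibroblasts, choroid plexus and ependyma, or thalamic and striatal neurons was in the table (0 genes), so the tissue could be checked on few markers. No marker in the table was at 0 in any library, where the smallest count of any gene was 19. The part of cell composition in the fall of Igfbp5 was not tested.

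The neighbours of Igfbp5 on chromosome 1 that are in the table lay in either direction. Arpc2, an actin nucleation subunit 1.36 Mb beyond the start of Igfbp5, was higher in EE, at 191.7 ± 11.2 and 213.9 ± 3.26 FPKM. Dnajb2, a co-chaperone 2.36 Mb away on the same side, was lower, at 19.4 ± 0.88 and 15.9 ± 0.08. On the other side, Kansl1l (6.04 Mb) and the BMP receptor gene Bmpr2 (13.0 Mb) were higher, with log2 fold changes of 0.25 and 0.15. With the GC correction these were 0.15 and 0.06, and with DESeq2 size factors 0.36 and 0.26.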

How the data were processed

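Hippocampal RNA-seq libraries, 3 SH and 3 EE, were grouped by their labels. The authors mapped reads to mm10 with Hisat2, counted them per gene with FeatureCounts 1.5.0-p3 and deposited the raw count of each gene that passed their threshold. FPKM, from count and gene length, was also deposited by the authors. Each gene's p-value and log2 ratio by the authors' own edgeR run are in the deposited table too and were not used. The strand setting is not given in the sources used here.

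Read totals were computed from count, FPKM and RefSeq exon length, where 200 genes gave the same total within 0.001% in each library, and served as library sizes. Within each group, no library was a repeat of another. Of 584 genes, 563 matched RefSeq by symbol, 14 by an older symbol and 7 not at all, and 570 have a GC content. The whole table was fitted with edgeR 4.0.16 (quasi-likelihood, R 4.3.3), standard errors being the log2 fold change over the square root of F. The fit was also run on simulated counts with a fixed spread and most genes unchanged. The selected table is unlike these, so that run does not show how the fit behaves here. The selected table gives no test of Igfbp5. Poisson intervals are exact (scipy 1.17.1).

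Igfbp5 and all gene lists were chosen with earlier results of these data known. Named genes are those of the lists, the 8 nearest in pattern, the 3 next in fold change each way and the 2 nearest on the chromosome each side. Alternatives were TMM, DESeq2 1.42.0, limma 3.58.1 on log2(FPKM + 0.1), pseudocounts of 1 and 0.01, a filter at a mean FPKM of 1, each library left out, the replicate number as a block, and scaling or GC correction from 308 genes outside the table, whose FPKM came from a supplementary list of the study and entered only as scaling. That list was held in part and was itself selected on m6A peaks that differed between SH and EE, so it is no neutral reference.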

Additional observations from a re-analysis of the deposited data

How the results depend on the processing

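The log2 fold change of Igfbp5 was below 0 in all 13 alternatives. It moved by more than the spread between replicates with TMM factors (-0.16) and DESeq2 size factors (-0.13), both estimated from the selected genes alone, and by less in the other settings, including the GC correction (-0.24), which by its construction hardly moves a gene of this GC content, and scaling to 308 genes outside the table (-0.25). With each library left out it ran from -0.28 to -0.21, the mean difference from -6.97 to -5.17 FPKM and the gap between groups from 0.15 to 0.24 on the log2 scale, the last without SH replicate 2. Leaving out a library can only keep or widen the gap, so the range of the gap does not show stability. For the mean difference, the gap and the counts of separated genes, TMM and DESeq2 scalings were added after the data were seen. With TMM factors the gap was 0.030 and the mean difference -4.05 FPKM, and with DESeq2 size factors the gap was -0.022, an overlap, and the mean difference -3.28 FPKM. Of 25 named genes whose groups were apart with read totals, Igfbp5 included, 2 overlapped with TMM and 9 with DESeq2. With a pseudocount of 1, 2 of the 8 genes nearest in pattern were kept, and Igf1r went from 1st to 10th. Counts over the table varied more. At an unadjusted p under 0.01, 237 genes were lower and 112 higher in edgeR. These were 53 and 229 with TMM, 29 and 233 with DESeq2, 154 and 50 with the GC correction, and 269 and 61 after scaling to genes outside the table. With each library left out, 77 (without EE replicate 2) to 228 genes were lower and 52 (without EE replicate 1) to 98 higher. Counts also dropped by over 1.5 times without SH replicate 2 (111 lower and 54 higher), for lower genes without EE replicate 1 (88) and for higher genes without EE replicate 2 (58). Genes whose EE libraries were all below SH numbered 314, 316 to 331 with a library left out, 243 with TMM and 174 with DESeq2. Leaving out a library cannot lower this count.

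The replicate number is shared by SH and EE mice in the labels only, and the correlations of same-numbered libraries over the 584 genes were 0.15, -0.04 and -0.10. With the number as a block, the log2 fold change of Igfbp5 was -0.24 and 136 genes were lower and 78 higher. Nothing can be said of genes outside the table, and 3 libraries a group limit the estimate of spread.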

Other observations

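Igfbp5 differed from most genes lower in EE in base composition. Its exons had a GC content of 50.8%, the 287th highest of the lower genes, whose median was 56.8%. The median of the genes higher in EE was 44.1%. Igf1r was similar to Igfbp5 in this respect, at 50.3%. A correction for each library's GC trend was centred on a GC content of 51.0%, so it could hardly move either gene, and their values after it (-0.24 and -0.23 on the log2 scale) do not show stability. Genes away from that centre moved. Among those with more GC, the log2 fold change went from -0.25 to -0.16 in Fbxo2 (62.2%) and from -0.24 to -0.19 in Mllt6 (58.9%). Among those with less, it went from -0.15 to -0.20 in Gja1 (44.3%) and from -0.26 to -0.31 in Trpc6 (44.9%). Of the 97 other genes within 2.5 points of the GC content of Igfbp5, a window set after the data were seen, 60 were lower and 37 higher in EE. The lower share, 61.9%, was near the 58.3% among all 569 other genes of the table with a GC content.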
